A study of Mus musculus with 9 samples.

Results

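Complement and coagulation are cascades of plasma proteases, and this account follows the messenger RNA of 50 of their factors, receptors and regulators in mouse liver. The members were taken by gene symbol from the deposited expression table, which lists 54532 genes. All 50 were found. Each member was put in a class by its best-known source, from general knowledge, although earlier results of these data were already known. The classes hold 35 factors made by hepatocytes, 8 made by macrophages, 3 made by endothelial cells and 4 with other or mixed sources.

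The livers came from male wild-type C57BL/6J mice in 3 groups of 3 libraries. The chow group ate normal chow and received vehicle, and the vehicle group received vehicle on CDAA-HFD, a high-fat diet without choline whose protein is replaced by defined amino acids. The 326E group ate the same CDAA-HFD and was given the compound 326E, an enedioic acid analogue, at 30 mg/kg for 6 weeks. CDAA-HFD is a dietary model of metabolic dysfunction-associated steatohepatitis (MASH), in which fat, inflammation and scarring build up in the liver. The titles of all libraries carry the letters MCD, but the protocol names CDAA-HFD and chow, and the protocol was followed. Nothing in the labels ties each library to its own animal, so p-values describe the spread between these samples, which may be technical.

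In complement, C1q binds a target and switches on the proteases C1r and C1s (classical pathway), while mannose-binding lectins do the same through the MASP proteases (lectin pathway). Both routes cleave C4 and C2, and all routes meet at C3 and end in the pore built from C5 to C9. In coagulation, tissue factor with factor VII, or the contact system, starts a chain of proteases that ends with thrombin, which turns fibrinogen into fibrin, and plasmin later dissolves the clot. The liver is the main source of plasma complement and clotting proteins. Tissue macrophages make C1q and carry the receptors for the small fragments C3a and C5a, and endothelial cells display thrombomodulin, which turns thrombin towards the anticoagulant protein C.

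The number of assigned reads was 13275888 in the shallowest and 17058316 in the deepest library. Values are FPKM, fragments per kilobase of transcript scaled to library size, so levels can be compared between genes, and a log2 change is a difference of log2(FPKM+1) with its standard error after ±. A gene was called at a Benjamini-Hochberg adjusted p under 0.05 in limma, over the 13737 genes that passed a filter on low values, and all 50 members passed it. The deposited FPKM were already scaled between libraries, and scaling to total reads instead moved the median log2 change of all genes from -0.04 to 0.25 in vehicle against chow. Of 15 hepatocyte markers, 9 were lower in vehicle than in chow livers, and their summed level was 47723 to 53805 FPKM in chow, 31225 to 46720 in vehicle and 29303 to 39299 in 326E livers. Of 14 macrophage markers, 14 were higher in vehicle livers, with summed levels of 187 to 243, 1374 to 2151 and 743 to 1304 FPKM in the same order. Kupffer cells are the resident macrophages of the liver. Their 9 markers, 8 of them tested, gave 2 higher and 2 lower in vehicle livers. They summed to 177 to 197, 182 to 268 and 190 to 312 FPKM. The 8 neutrophil markers, 7 of them tested, gave 5 higher and 0 lower. They summed to 5.07 to 27.0, 34.8 to 61.4 and 18.6 to 33.2 FPKM. Over all genes tested, 20.8% were called higher and 20.8% lower in vehicle against chow. In whole liver, fewer cells of a type and less RNA per cell cannot be told apart.

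Promoter sequences are shown for the 3 fibrinogen genes, which had the highest levels of all members in chow livers and changed together, for C9, which fell most among the hepatocyte-made factors, and for 2 C1q genes from the macrophage-made class. The search window was the 250 bases before the start that RefSeq gives each gene on GRCm38.p6 (the build also called mm10), and sequences are printed 5′ to 3′ on the gene's strand. The gene in the deposited table begins further upstream for Fga, C9 and C1qc, so that 77, 19 and 151 bases of their windows lie inside it; these bases were searched but are not printed. Capitals mark matches to GTTAAT (the core of sites for the hepatocyte factor HNF1), TTNNGNAAT (C/EBP) or CTGGGAA (the IL-6 response element) in the fibrinogen genes and C9, and to GAGGAA (the core of the macrophage factor PU.1) in the C1q genes. Both strands were searched, so a match can appear as its reverse complement, ATTAAC, ATTGCATAA or TTCCTC. Fga lies at chr3:83025903-83026075, plus strand, Fgb at chr3:83049864-83050113, minus strand, Fgg at chr3:83007474-83007723, plus strand and C9 at chr15:6445096-6445326, plus strand. C1qb lies at chr4:136886201-136886450, minus strand, and C1qc at chr4:136893066-136893164, minus strand.
Fga: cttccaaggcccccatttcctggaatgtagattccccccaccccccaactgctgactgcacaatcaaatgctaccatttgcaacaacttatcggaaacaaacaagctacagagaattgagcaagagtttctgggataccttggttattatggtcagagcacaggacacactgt
Fgb: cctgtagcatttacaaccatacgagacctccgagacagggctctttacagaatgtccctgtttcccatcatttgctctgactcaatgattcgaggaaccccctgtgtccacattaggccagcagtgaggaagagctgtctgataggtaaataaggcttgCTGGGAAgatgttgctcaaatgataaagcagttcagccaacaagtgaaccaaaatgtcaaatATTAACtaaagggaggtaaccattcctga
Fgg: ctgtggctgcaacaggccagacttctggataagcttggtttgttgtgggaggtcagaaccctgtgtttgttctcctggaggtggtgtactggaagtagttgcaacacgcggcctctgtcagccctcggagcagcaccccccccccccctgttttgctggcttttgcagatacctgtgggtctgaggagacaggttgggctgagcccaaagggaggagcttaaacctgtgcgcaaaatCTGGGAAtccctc
C9: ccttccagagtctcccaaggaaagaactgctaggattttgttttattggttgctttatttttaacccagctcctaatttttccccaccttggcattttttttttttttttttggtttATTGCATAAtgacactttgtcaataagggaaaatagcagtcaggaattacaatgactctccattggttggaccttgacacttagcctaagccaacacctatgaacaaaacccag
C1qb: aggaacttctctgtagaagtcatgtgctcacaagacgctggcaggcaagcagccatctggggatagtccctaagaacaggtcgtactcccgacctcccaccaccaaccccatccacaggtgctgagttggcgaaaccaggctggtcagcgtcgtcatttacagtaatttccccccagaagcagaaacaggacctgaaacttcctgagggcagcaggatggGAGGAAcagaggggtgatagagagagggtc
C1qc: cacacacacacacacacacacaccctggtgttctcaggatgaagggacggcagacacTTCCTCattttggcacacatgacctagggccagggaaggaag
Counted from the RefSeq start, GTTAAT lay 43 to 38 bases before Fga, in the stretch that is not printed, and 29 to 24 bases before Fgb. CTGGGAA lay 91 to 85 bases before the start of Fgb and 13 to 7 bases before that of Fgg. The C/EBP match of C9 lay 133 to 125 bases before its start, and the GAGGAA of C1qb 30 to 25 bases.

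Promoters were found for 37 of the 50 members, 27 of them hepatocyte-made and 7 macrophage-made. GTTAAT occurred in 8 of the 27 hepatocyte-made promoters (29.6%), in 1 of the 7 macrophage-made promoters (Cfp) and in 6.43% of all 32851 promoters of this length. The 8 were C4bp, F13b, Hc, Fga, Fgb, C8b, C8a and C1ra. TTNNGNAAT occurred in 8 of 27 hepatocyte-made promoters (29.6%), including C3, C6, C9 and Klkb1, in 0 of 7 macrophage-made promoters and in 10.2% of all. The shares for CTGGGAA were 18.5% (Fgg, Fgb, Masp2, C1ra and F9), 0% and 9.10%, and for the STAT motif TTCNNNGAA, which can overlap CTGGGAA, 22.2%, 0% and 7.02%. GAGGAA went the other way, with 7.41% of hepatocyte-made, 57.1% of macrophage-made (C1qb, C1qc, Plaur and F13a1) and 23.3% of all promoters. The longer core GAGGAAGT, which contains GAGGAA, was in 1 macrophage-made promoter and 2.44% of all. AP-1 (TGANTCA) was in 7.41%, 28.6% and 6.75%, and the TATA box (TATAAA) in 7.41%, 14.3% and 12.4%. The full HNF1 site, which holds GTTAAT, and the HNF4 site CAAAGTCCA were found in no member promoter, against 0.00913% and 0.384% of all. These matches describe letters in a short window and not bound sites.

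The first comparison asked what CDAA-HFD changed, vehicle against chow. The hepatocyte-made and the macrophage-made factors went in opposite directions. Of the 35 hepatocyte-made factors, 26 were lower, 1 was higher and 8 passed in neither direction. Their median log2 change was -0.72, against -0.74 for the 15 hepatocyte markers and -0.04 for all genes tested. Of the 8 macrophage-made factors, 7 were higher, 0 were lower and 1 (Cfp) was not called. Their median was 1.51, against 2.32 for the 14 macrophage markers. Over all 50 members 38 were called, 12 higher and 26 lower, where 41.6% of all genes tested were called, 20.8% higher and 20.8% lower. Without overlap between chow and vehicle, 13 members were higher and 27 lower, as were 24.9% and 27.0% of all genes tested. Summed over the class, hepatocyte-made factors amounted to 11557 to 16878 FPKM in chow and 6389 to 8716 in vehicle livers, and macrophage-made factors to 94.0 to 126 (chow) and 268 to 362 (vehicle).

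How many hepatocyte-made factors were called lower depended on the scaling, whereas the macrophage-made rises numbered 7 as deposited and 8, with Cfp, in the other scalings. The lower calls in the hepatocyte-made class numbered 14 with quantile normalization and 14 with scaling to total reads, and over all members the split of higher to lower was then 12 to 14 and 14 to 14. The class median stayed below that of all genes in each case, by 0.68 as deposited, 0.23 with quantile normalization and 0.57 with total reads. The 12 lower in all 3 scalings and in every other alternative tried were Mbl1, Mbl2, Masp2, Hc, C8a, C8b, C8g, C9, F10, Klkb1, Fga and Fgb. The other 14, C1ra, C1s1, Masp1, C4b, Cfi, C6, F7, F2, F11, F12, Fgg, F13b, Proc and Plg, lost their call with 1 or both of the other scalings. Leaving out chow replicate 1 or 2 or vehicle replicate 1 or 2 also ended the calls of C1ra (adjusted p = 0.063 to 0.085), Cfi (0.057 to 0.080), F2 (0.060 to 0.091) and F12 (0.054 to 0.11). C4b lost its call without chow replicate 2 (0.054) or vehicle replicate 1 (0.060) or 2 (0.074), Masp1 without chow replicate 1 (0.052) or 2 (0.054) or vehicle replicate 1 (0.055), and F11 without chow replicate 1 (0.053). C1s1 lost it in 6 of the 9 fits that each leave out 1 library (0.051 to 0.11), all but those without vehicle replicate 3 or 326E replicate 1 or 3. The 7 macrophage-made rises (C1qa, C1qb, C1qc, C3ar1, C5ar1, F13a1 and Plaur) were called under every alternative in which they could be tested, which for F13a1 leaves out the mean of at least 1 FPKM and the fit with only vehicle replicate 2.

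**Figure D1:**
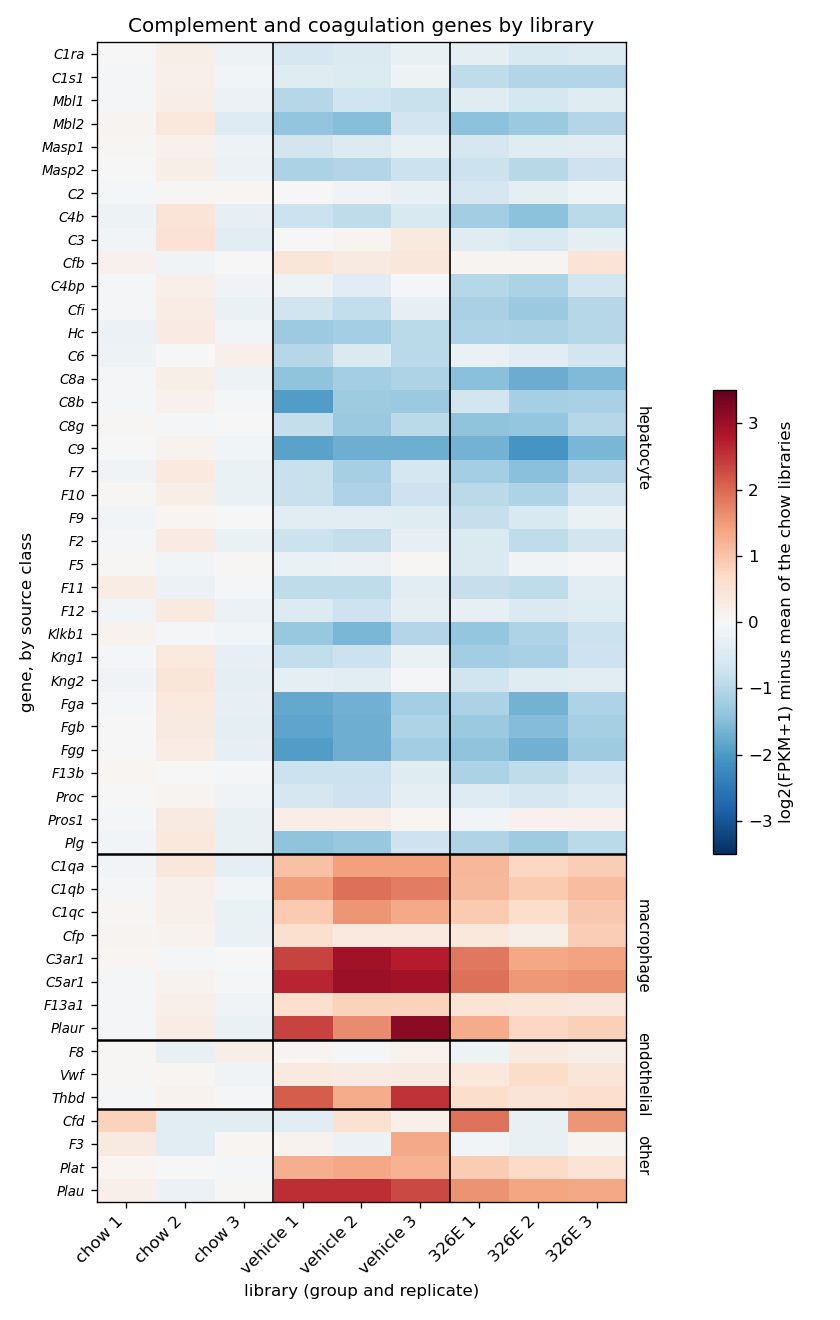
Each row is 1 of the 50 members and each column 1 of the 9 libraries; colour gives log2(FPKM+1) minus the mean of the chow libraries, from blue (lower) to red (higher). Hepatocyte-made factors are mostly blue and macrophage-made factors mostly red in the vehicle and 326E libraries, and 26 of the former and 7 of the latter were called in vehicle against chow.

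The 3 chains of C1q, the recognition molecule of the classical pathway, rose on CDAA-HFD. C1qb (ENSMUSG00000036905, mm10 chr4:136880129-136886187, minus strand) measured 44.9, 53.4 and 44.3 FPKM in chow, 132, 184 and 167 in vehicle and 106, 90.1 and 102 in 326E livers. The lowest vehicle library thus lay above every chow library, and the change was 1.73 ± 0.14 (adjusted p = 3.6e-05), a 3.38-fold higher mean. C1qa went from 21.9, 31.2 and 18.4 FPKM (chow) to 47.96, 64.95 and 64.4 (vehicle), with 53.7, 39.1 and 42.7 under 326E, a diet change of 1.30 ± 0.21. C1qc went from 21.5, 23.7 and 17.5 to 40.1, 62.04 and 54.01, with 40.01, 32.1 and 40.6 under 326E, a diet change of 1.26 ± 0.18. None of the 3 overlapped between chow and vehicle. The chains are needed in equal numbers in the protein, but their messages did not rise equally: C1qa over C1qb was 0.415 to 0.584 in chow and 0.354 to 0.386 in vehicle livers.

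The partner proteases of C1q, made by hepatocytes, did not follow it. C1ra, which cleaves C1s, measured 80.7, 94.9 and 71.9 FPKM in chow, 54.2, 57.9 and 68.6 in vehicle and 66.3, 56.7 and 58.4 in 326E livers, a diet change of -0.45 ± 0.14. C1s1, which cleaves C4 and C2, measured 132, 156 and 129.9 FPKM in chow, 103, 99.8 and 122 in vehicle and 74.2, 67.1 and 68.2 in 326E livers. Its diet change was -0.36 ± 0.12 (adjusted p = 0.037) as deposited, but 0.022 with quantile normalization (adjusted p = 0.88) and 0.035 with total reads (adjusted p = 0.83), so the diet call for C1s1 rests on the scaling.

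All 4 members of the lectin pathway were lower on the diet. Mbl2, a mannose-binding lectin, measured 195, 238 and 133 FPKM in chow, 70.4, 64.8 and 116 in vehicle and 67.2, 73.7 and 89.6 in 326E livers, a diet change of -1.17 ± 0.26. Mbl1, the other lectin, measured 113, 137 and 102 FPKM in chow, 58.1, 71.7 and 67.8 in vehicle and 87.1, 74.9 and 86.1 in 326E livers, a change of -0.82 ± 0.14. Chow and vehicle did not overlap for either. Masp2, the protease that cleaves C4 and C2 on this route, measured 36.4, 42.4 and 31.4 FPKM in chow, 16.4, 17.3 and 21.4 in vehicle and 21.4, 18.2 and 21.7 in 326E livers, a change of -0.96 ± 0.14. It shares 54.9% of its exon bases with Tardbp on the opposite strand, and the strand setting of the counting is not given in the sources used here, so its level is uncertain. Masp1 changed by -0.46 ± 0.13.

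C3, the hub of all routes, was not called in the deposited scaling and had the highest level of the members in vehicle livers. It measured 1429, 2179 and 1155 FPKM in chow, 1504, 1641 and 1926 in vehicle and 1132, 1063 and 1216 in 326E livers, a diet change of 0.13 ± 0.23 (adjusted p = 0.67), and chow replicate 2 alone was above all vehicle libraries. With quantile normalization C3 was called higher, with a change of 1.13 (adjusted p = 0.0017). C3 was the fourth of the members by mean level in chow and the first in vehicle livers. It made up 11.4% of the summed mean levels of hepatocyte-made factors in chow and 23.2% in vehicle livers. A factor applied to a whole library leaves the share within that library unchanged. Such factors can still shift these shares of group means, and quantile normalization can change both. C4b, the source of the C4 that C1s and MASP-2 cleave, measured 276, 429.6 and 255 FPKM in chow, 185, 169 and 216 in vehicle and 134, 115 and 161 in 326E livers, a diet change of -0.72 ± 0.21. Its near copy C4a had 3.89, 0.481 and 1.46 FPKM on average, and how reads were shared between the copies is uncertain. C4b over C3 was 0.193 to 0.220 in chow and 0.103 to 0.123 in vehicle livers, without overlap (exact permutation test, two-sided, p = 0.1, the smallest that 3 against 3 allows, and 0.2 adjusted over 14 ratios, as also for C1qa over C1qb above and for the ratios of C9 to C6 and Pros1 to Proc below).

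The alternative pathway members gave no clear direction. Cfb, the factor B that builds the C3 convertase of this pathway, measured 1.23, 0.847 and 0.999 FPKM in chow, 1.71, 1.53 and 1.66 in vehicle and 1.14, 1.18 and 1.81 in 326E livers, a diet change of 0.38 ± 0.13 (adjusted p = 0.038). It is the 1 hepatocyte-made factor called higher, but 79.5% of its exon bases are shared with the readthrough gene Gm20547, which received at most 1 read, so both its low level and its change are uncertain. The call for Cfb was lost without chow replicate 2 (adjusted p = 0.11) or 3 (0.087) or any 1 of the vehicle replicates (0.062 to 0.091). C2, its counterpart in the classical pathway, shares 42.8% with the same gene, averaged 16.2 FPKM in chow and 14.9 in vehicle livers, and was not called. Cfd, factor D, an adipose-rich protease that activates factor B, measured 1.34, 0 and 0 FPKM in chow, 0, 0.907 and 0.504 in vehicle and 3.99, 0.1201 and 2.84 in 326E livers and was not called. The adipocyte markers, with Lep at 0 throughout, summed to 0.485, 0.0166 and 0 FPKM in chow and 0, 0.540 and 0.183 in vehicle livers. In 326E livers they summed to 1.37, 0.0595 and 1.49 FPKM. The part of adipose tissue in the Cfd values was not tested. Cfp, properdin, which steadies the convertase, measured 14.9, 15.3 and 11.7 FPKM in chow, 20.8, 17.9 and 18.02 in vehicle and 18.2, 16.1 and 26.1 in 326E livers, with no overlap between chow and vehicle but a change of 0.42 ± 0.17 (adjusted p = 0.085). Cfp was called higher with quantile normalization (0.53, adjusted p = 0.026) and with total reads (0.79, adjusted p = 0.0036).

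Of the inhibitors, Cfi, the protease factor I that cuts C3b and C4b, measured 321, 395 and 276 FPKM in chow, 199.6, 181 and 266 in vehicle and 149, 133 and 164 in 326E livers, a diet change of -0.62 ± 0.18. C4bp, the C4b-binding protein that assists it, measured 105, 123 and 101 FPKM in chow, 95.9, 83.95 and 103 in vehicle and 53.8, 50.1 and 69.99 in 326E livers and was not called for the diet (-0.21 ± 0.15, adjusted p = 0.28).

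The terminal pathway fell as a whole, 6 of 6 members. C9 (ENSMUSG00000022149, mm10 chr15:6445327-6498751, plus strand), which polymerises into the membrane pore, measured 547, 603 and 518 FPKM in chow, 152, 171 and 169.6 in vehicle and 174, 132 and 184 in 326E livers. Every chow library was far above every library on CDAA-HFD, the mean was 3.39-fold lower in vehicle livers and the change was -1.75 ± 0.15 (adjusted p = 3.6e-05). C8b, a chain of the C8 complex, measured 214, 248 and 215 FPKM in chow, 56.9, 94.8 and 90.97 in vehicle and 144, 99.9 and 101 in 326E livers, a diet change of -1.50 ± 0.22. C6, which joins C5b at the start of the pore, measured 135, 155 and 174 FPKM in chow, 76.2, 107 and 78.96 in vehicle and 132, 119.5 and 96.2 in 326E livers, a diet change of -0.83 ± 0.17. C8a, C8g and Hc (the mouse gene for C5) changed by -1.23, -1.02 and -1.14. The 6 summed to 1734 to 2017 FPKM in chow and 678 to 785 in vehicle livers. The fall was uneven, since C9 over C6 went from 2.97 to 4.04 in chow to 1.59 to 2.15 in vehicle livers.

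The receptors for the fragments of C3 and C5 rose most of all complement members. C5ar1 (ENSMUSG00000049130, mm10 chr7:16246743-16259540, minus strand), the C5a receptor of myeloid cells, measured 0.603, 0.811 and 0.567 FPKM in chow, 9.47, 12.1 and 11.8 in vehicle and 5.31, 3.75 and 3.902 in 326E livers. Its mean was 16.8-fold higher in vehicle than in chow livers, a change of 2.86 ± 0.14 (adjusted p = 4.9e-06). C3ar1, the C3a receptor, measured 1.46, 1.24 and 1.37 FPKM in chow, 11.1, 17.1 and 14.8 in vehicle and 7.52, 5.01 and 5.27 in 326E livers, a change of 2.68 ± 0.17, and the groups did not overlap for either receptor. The summed macrophage and neutrophil markers rose in the same libraries, and the part of either in the rise of C1q and the receptors was not tested.

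**Figure D2:**
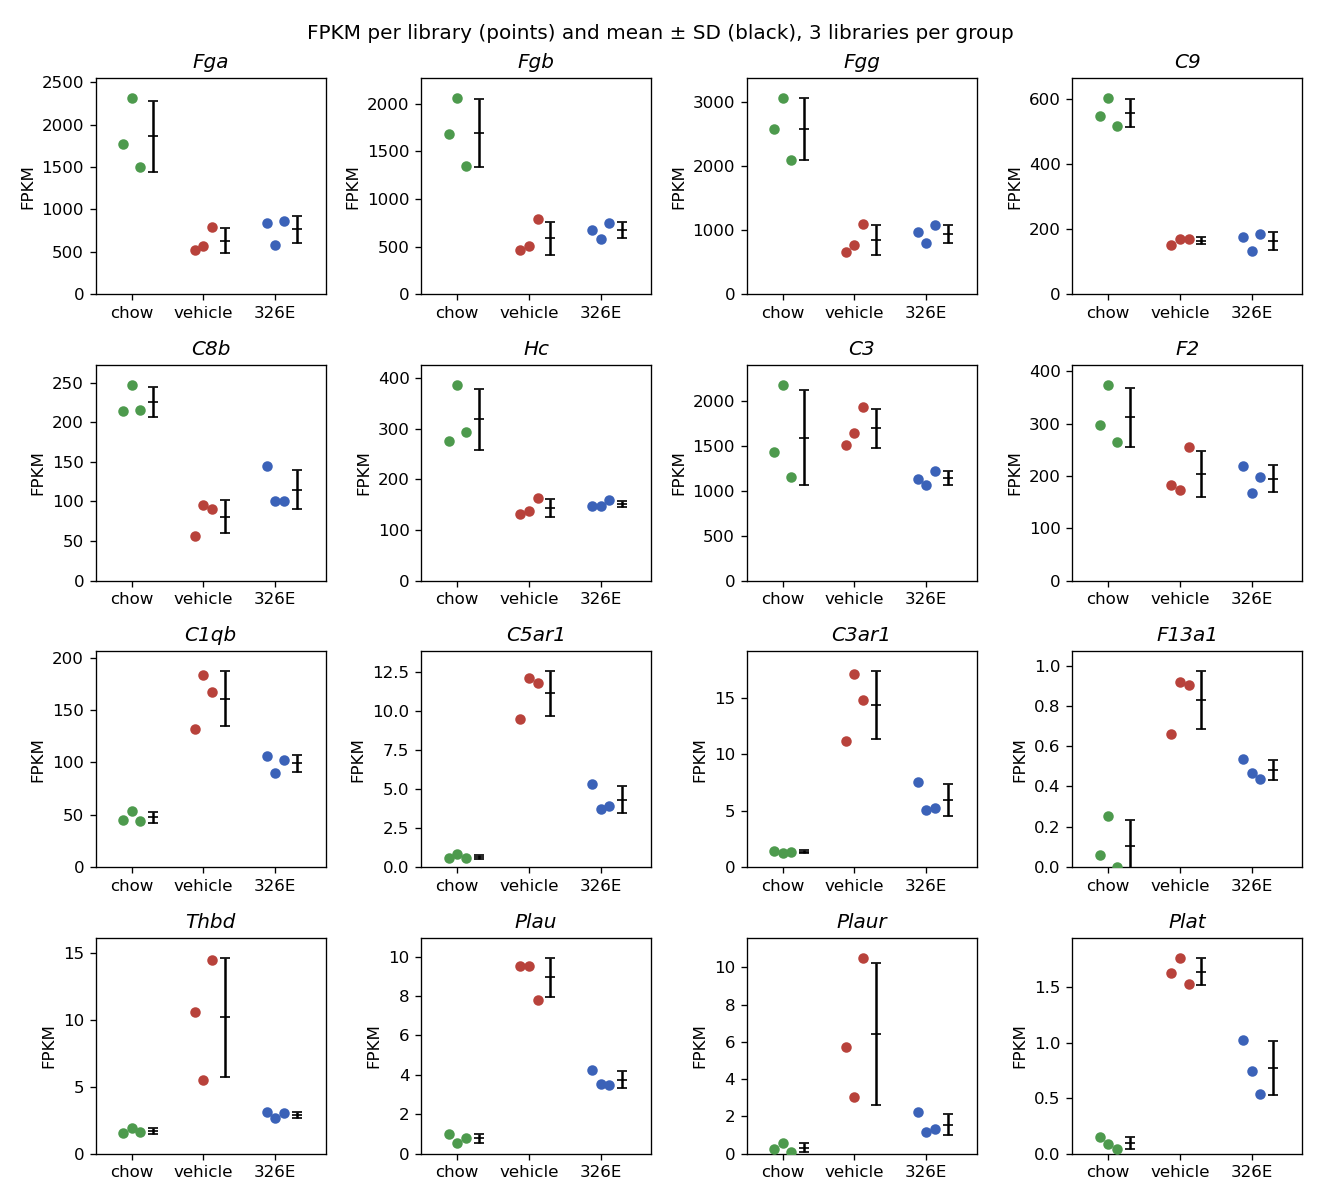
Points are FPKM in single libraries, and the lines give the mean and SD of the 3 libraries of each group (chow, vehicle, 326E), each panel with its own linear axis from 0 (the chow bar of F13a1 is cut there). Hepatocyte-made factors such as C9 and Fga are high in chow and low in both CDAA-HFD groups, whereas macrophage-made factors such as C5ar1 are highest in vehicle livers and lie between the other groups under 326E.

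In the chain from tissue factor to thrombin, F7, F10 and F2 were lower on the diet, and F3 and F9 were not called. F3, tissue factor, the membrane protein that starts clotting, measured 3.495, 1.77 and 2.74 FPKM in chow, 2.93, 2.12 and 8.06 in vehicle and 2.35, 2.02 and 2.88 in 326E livers, and its vehicle mean rests on replicate 3. F7, the protease that binds it, measured 47.9, 66.1 and 44.6 FPKM in chow, 30.1, 22.7 and 33.6 in vehicle and 22.3, 18.4 and 25.2 in 326E livers, a diet change of -0.85 ± 0.19. F10, which makes thrombin, measured 185, 206 and 153 FPKM in chow, 104, 84.5 and 108 in vehicle and 93.9, 84.2 and 116 in 326E livers, a change of -0.87 ± 0.16. The groups of chow and vehicle were apart for both. F2, prothrombin, measured 298, 375 and 264 FPKM in chow, 183, 173 and 255 in vehicle and 219, 168 and 198 in 326E livers, a change of -0.62 ± 0.19 that was no longer called with either other scaling. F9, which works with factor VIII to activate factor X, changed by -0.40 ± 0.14 (adjusted p = 0.051).

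Of the cofactors, neither F5 nor F8 was called. F5, the cofactor of factor X, measured 123, 113 and 125 FPKM in chow, 103, 104 and 124 in vehicle and 84.7, 111 and 116 in 326E livers. F8, the cofactor of factor IX, averaged 5.003, 5.21 and 5.48. Vwf, the platelet tether of endothelial cells that carries factor VIII, measured 0.714, 0.7496 and 0.533 FPKM in chow, 1.12, 1.01 and 1.08 in vehicle and 1.15, 1.57 and 1.22 in 326E livers, a small diet change of 0.32 ± 0.10 at a low level. That call was lost without chow replicate 1 (adjusted p = 0.065) or 3 (0.115) or any 1 of the vehicle replicates (0.062 to 0.087). Of 11 endothelial markers, 3 were higher and 1 was lower on the diet, where 20.8% of all genes tested were called each way. Under 326E 0 of these markers were called by limma, where 3 had an unadjusted p under 0.05.

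The contact system was lower in 3 of 5 members. Klkb1, plasma prekallikrein, which activates factor XII and frees bradykinin, measured 52.6, 47.3 and 45.5 FPKM in chow, 18.7, 15.4 and 23.1 in vehicle and 18.2, 22.2 and 28.4 in 326E livers, a diet change of -1.32 ± 0.18 (adjusted p = 0.00049). It shares 43.2% of its exon bases with Gm45753, which received at most 2 reads, so its level is uncertain. F11, the protease that activates factor IX, measured 59.7, 43.1 and 46.97 FPKM in chow, 26.4, 26.1 and 37.5 in vehicle and 27.8, 26.1 and 37.01 in 326E livers, a change of -0.72 ± 0.19, and F12 changed by -0.51 ± 0.16. Kng1, kininogen, the source of bradykinin, measured 807, 1046 and 672 FPKM in chow, 458, 492 and 702 in vehicle and 357, 378 and 505 in 326E livers and narrowly missed the threshold (-0.61 ± 0.23, adjusted p = 0.058), and Kng2 was not called.

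The fibrinogen genes had the highest levels in chow livers and fell about equally. Fga (ENSMUSG00000028001, mm10 chr3:83026076-83033627, plus strand) measured 1769, 2317 and 1500.5 FPKM in chow, 524, 566 and 797 in vehicle and 844, 583 and 865 in 326E livers. Fgb measured 1684, 2062 and 1346 FPKM in chow, 468, 508 and 788 in vehicle and 676, 584 and 751 in 326E livers. Fgg (ENSMUSG00000033860, mm10 chr3:83007724-83015049, plus strand) measured 2583, 3069.5 and 2100.0 FPKM in chow, 664, 774 and 1102 in vehicle and 968, 794 and 1073 in 326E livers. Every chow library was above every library on CDAA-HFD for all 3 chains. The diet changes were -1.56 ± 0.24, -1.55 ± 0.24 and -1.63 ± 0.23 for Fga, Fgb and Fgg, and the means were 2.96-, 2.89- and 3.05-fold lower in vehicle livers. With quantile normalization the change of Fgg was -0.52 (adjusted p = 0.058). The ratio of Fga to Fgb stayed between 0.998 and 1.25 and that of Fgg to Fgb between 1.36 and 1.56 in all 9 libraries. Fgg over Fgb was 1.36 to 1.43 under 326E and 1.49 to 1.56 in chow, without overlap. The exact permutation test, two-sided, gave p = 0.1, the smallest possible, and 0.156 adjusted over 14 ratios. The promoters of the 3 chains lie in 1 cluster on chromosome 3. The windows of Fga and Fgb share GTTAAT whereas those of Fgb and Fgg share CTGGGAA.

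Factor XIII, which crosslinks fibrin, split by source. F13a1, its catalytic chain, made by macrophages and platelets, measured 0.0575, 0.252 and 0 FPKM in chow, 0.662, 0.9199 and 0.904 in vehicle and 0.537, 0.468 and 0.438 in 326E livers, a diet change of 0.73 ± 0.12 at a low level. F13b, its carrier chain from hepatocytes, averaged 124 ± 6.32 in chow and 79.6 ± 10.7 in vehicle livers, a change of -0.64 ± 0.14. Of the 3 platelet markers that could be tested, Pf4 rose and the others were not called.

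In the protein C pathway the 3 members took 3 courses. Proc, the anticoagulant protease itself, measured 254, 267 and 231 FPKM in chow, 166, 149.8 and 198 in vehicle and 183, 166 and 181 in 326E livers, a diet change of -0.55 ± 0.13. Pros1, its cofactor, measured 28.5, 37.4 and 24.7 FPKM in chow, 34.99, 34.9 and 31.4 in vehicle and 27.6, 33.1 and 33.3 in 326E livers and was not called (0.17 ± 0.15). With total reads Pros1 was called higher (0.56, adjusted p = 0.020). Pros1 over Proc was 0.107 to 0.140 in chow and 0.158 to 0.233 in vehicle livers. Thbd (ENSMUSG00000074743, mm10 chr2:148404466-148408188, minus strand), thrombomodulin, measured 1.54, 1.91 and 1.59 FPKM in chow, 10.6, 5.54 and 14.5 in vehicle and 3.09, 2.66 and 3.01 in 326E livers, a diet change of 1.98 ± 0.26 (adjusted p = 0.00039) with a wide spread among the vehicle libraries.

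In fibrinolysis, the substrate fell and its activators rose. Plg, plasminogen, averaged 570.4 ± 132 FPKM in chow and 258 ± 70.5 in vehicle livers, a change of -1.15 ± 0.22. Plau (ENSMUSG00000021822, mm10 chr14:20836660-20843385, plus strand), urokinase, which activates plasminogen at cell surfaces, measured 0.982, 0.522 and 0.807 in chow, 9.55, 9.52 and 7.797 in vehicle and 4.23, 3.55 and 3.49 in 326E livers, a diet change of 2.50 ± 0.13 (adjusted p = 4.9e-06). Plaur, the urokinase receptor, measured 0.266, 0.5604 and 0.104 FPKM in chow, 5.699, 3.05 and 10.5 in vehicle and 2.21, 1.16 and 1.302 in 326E livers, a change of 2.39 ± 0.34. No chow library reached the lowest vehicle library for either gene, and the vehicle libraries agreed closely for Plau but not for Plaur. Plat, the tissue activator, rose from 0.0931 ± 0.0529 to 1.64 ± 0.121 FPKM, a change of 1.27 ± 0.12. Plasminogen stayed the most abundant of the 4 in every group, at 258 FPKM against 8.96 for urokinase in vehicle livers.

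The second comparison asked what 326E changed in livers on CDAA-HFD, 326E against vehicle. Of the 50 members, 9 were called, all lower, where 6.50% of all genes tested were called lower and 4.96% higher. Without overlap between the 2 groups, 3 members were higher and 15 lower, as were 14.8% and 18.2% of all genes tested. The 9 called were C1qb, C3ar1, C5ar1 and Plaur among the 8 macrophage-made factors, C1s1 and C4bp among the 35 hepatocyte-made factors, Thbd of the 3 endothelial-made factors, and Plau and Plat. The median log2 change was -0.56 for macrophage-made and -0.05 for hepatocyte-made factors, against -0.02 for all genes tested. It was -0.70 for the macrophage markers and -0.08 for the hepatocyte markers. Of the 14 macrophage markers 7 were lower under 326E, as was 1 of 7 neutrophil markers, and the part of either in the falls was not tested. Both comparisons use the vehicle libraries, so their changes are given side by side and no relation between them was computed.

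C5ar1, C3ar1, Plau and Thbd were called lower under every alternative tried. The mean of C5ar1 was 2.57-fold lower, with a change of -1.19 ± 0.14 (adjusted p = 0.0021), and its highest 326E library lay below its lowest vehicle library. C3ar1 changed by -1.14 ± 0.17 (adjusted p = 0.0056) and Plau by -1.06 ± 0.13 (adjusted p = 0.0023), both without overlap. C1qb changed by -0.68 ± 0.14 (adjusted p = 0.019), while C1qa (-0.38 ± 0.21, adjusted p = 0.27) and C1qc (-0.45 ± 0.18, adjusted p = 0.14) did not pass. The call for C1qb was lost without vehicle replicate 3, 326E replicate 2 or 326E replicate 3, with adjusted p of 0.060, 0.074 and 0.053. Plat changed by -0.59 ± 0.12 (adjusted p = 0.016), a call lost without 326E replicate 2 (0.057) or 3 (0.052).

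Thbd and Plaur had the largest changes, -1.43 ± 0.26 (adjusted p = 0.011) and -1.43 ± 0.34 (adjusted p = 0.028), on uneven vehicle libraries. Vehicle replicate 2 was the lowest and replicate 3 the highest of the group for both, as also for F3. The median of 15 immediate early genes, induced rapidly and briefly by stimuli, showed the same order, at 3.75, 1.63 and 4.32 log2 units above the chow mean in vehicle replicates 1, 2 and 3 and 0.84 to 0.99 in the 326E livers. These genes were listed with the values in view, and the part of such a response in the changes was not tested. With vehicle replicate 2 alone in its group, Thbd changed by -0.74 (adjusted p = 0.047) and Plaur by -0.68 (adjusted p = 0.24), while C5ar1 changed by -1.31 (adjusted p = 0.032). The call for Plaur was also lost without vehicle replicate 1 (adjusted p = 0.065) or 3 (0.054) or 326E replicate 2 (0.094) or 3 (0.088).

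Among the hepatocyte-made factors 2 were called under 326E. C1s1 changed by -0.62 ± 0.12 (adjusted p = 0.014), with 326E libraries all below the vehicle libraries. Its partner C1ra changed by 0.01 ± 0.14, so the ratio of C1s1 to C1ra went from 1.72 to 1.90 in vehicle to 1.12 to 1.18 in 326E livers, with 1.64 to 1.81 in chow (exact permutation test, two-sided, p = 0.1, the smallest possible, and 0.35 adjusted over 14 ratios). C4bp changed by -0.70 ± 0.15 (adjusted p = 0.019). Both calls were lost when single libraries were left out: C1s1 without 326E replicate 2 (adjusted p = 0.057), and C4bp without vehicle replicate 1 (0.052) or 3 (0.064) or 326E replicate 1 (0.060) or 2 (0.074). C4b (-0.48 ± 0.21, adjusted p = 0.18), Cfi (-0.51 ± 0.18, adjusted p = 0.1) and C3 (-0.57 ± 0.23, adjusted p = 0.15) had lower 326E means that did not pass in the deposited scaling. All 3 were called lower with quantile normalization (adjusted p = 0.043, 0.021 and 0.022), which brings the hepatocyte-made calls to 5, and Cfi also with voom on the whole reads (0.037).

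The factors that fell most on the diet were not called higher under 326E. The changes were 0.28 ± 0.24 for Fga, 0.22 ± 0.24 for Fgb, 0.18 ± 0.23 for Fgg and -0.02 ± 0.15 for C9. The terminal pathway summed to 691 to 810 FPKM under 326E and 678 to 785 with vehicle. C8b had 144, 99.9 and 101 FPKM under 326E against 56.9, 94.8 and 90.97 with vehicle, a change of 0.52 ± 0.22 (adjusted p = 0.16), and C8a went the other way (-0.34 ± 0.15, adjusted p = 0.16). The ratio of C8b to C8a was therefore 0.903 to 1.21 under 326E, above both the vehicle (0.465 to 0.668) and the chow livers (0.650 to 0.746), with p = 0.1 by the exact permutation test against vehicle and 0.35 adjusted.

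**Figure D3:**
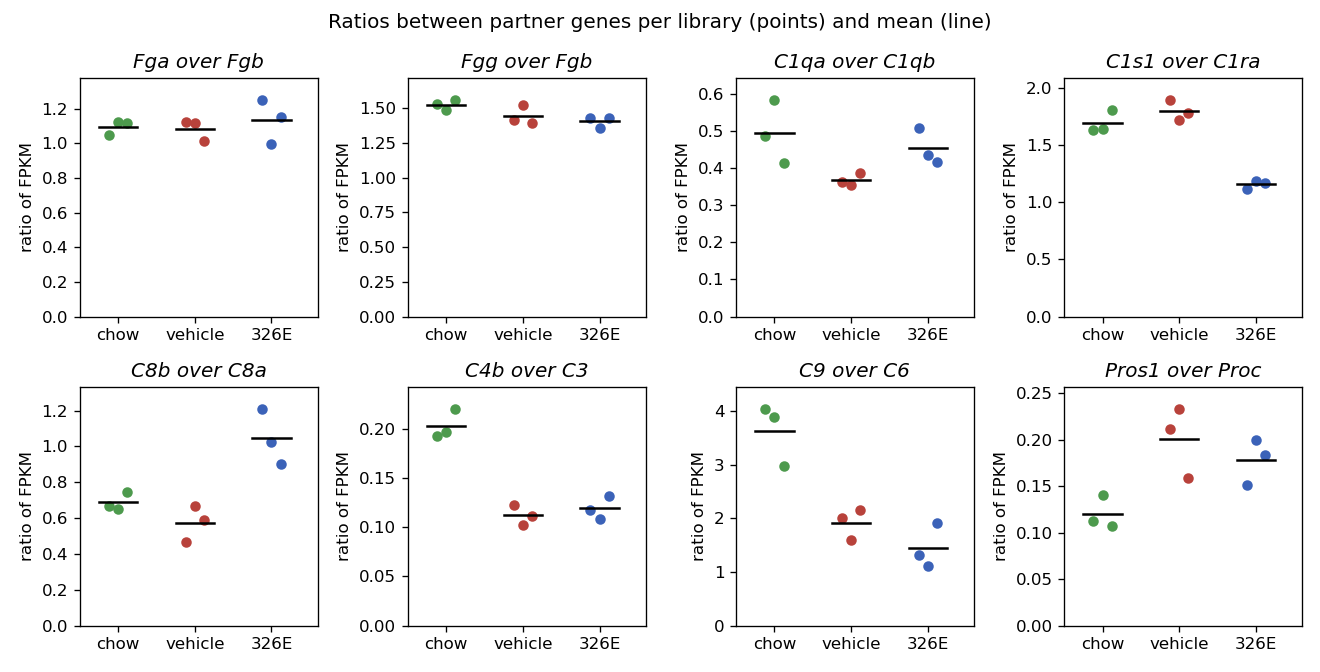
Each point is the ratio of FPKM of a pair of partner genes in 1 library and the line is the group mean, on linear axes from 0. Fga over Fgb overlaps across chow, vehicle and 326E. Fgg over Fgb varies little but is lower under 326E (1.36 to 1.43) than in chow (1.49 to 1.56). C1s1 over C1ra is lowest (1.12 to 1.18) and C8b over C8a highest (0.903 to 1.21) under 326E.

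The last comparison asked which members still differed from chow under 326E. Of the 50 members, 36 were called, 9 higher and 27 lower, where 14.4% of all genes tested were called higher and 12.5% lower. The hepatocyte-made class held all 27 lower calls, with a median of -0.89 against -0.02 for all genes. The 15 hepatocyte markers had a median of -0.68. In the class, 31 of 35 members were lower without overlap between the groups, as were 22.6% of all genes tested. With quantile normalization the calls split into 8 higher and 16 lower, and with total reads into 13 and 19, with 16 and 19 hepatocyte-made factors lower. The 16 lower under every alternative tried were C1s1, Mbl2, Masp2, C4b, C4bp, Cfi, Hc, C8a, C8g, C9, F7, F10, Klkb1, Fga, Fgg and F13b. Single libraries decided the calls of C1ra, Mbl1, Masp1, F9, F2, F11 and Proc, whose adjusted p reached 0.131, 0.105, 0.085, 0.079, 0.11, 0.089 and 0.077 without 326E replicate 2 (326E replicate 1 for Masp1), and all 7 calls were also lost without chow replicate 1 (0.052 to 0.094). C9 changed by -1.77 ± 0.15, Fgg by -1.44 ± 0.23 and C4b by -1.20 ± 0.21 from chow. C6 and F12 were called lower in vehicle but not in 326E livers (-0.42 and -0.40), where both still lay below chow without overlap. F9, Kng1 and C4bp were called lower in 326E but not in vehicle livers. Compared directly, 326E against vehicle, C6, F12, F9 and Kng1 were not called (adjusted p = 0.17, 0.72, 0.64 and 0.29 in limma).

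Of the macrophage-made factors, 6 of 8 remained above chow under 326E, with a median of 0.94. The 14 macrophage markers had a median of 1.56. The call for F13a1 (0.43 ± 0.12) was lost without chow replicate 1 (adjusted p = 0.075) or 3 (0.084) or 326E replicate 1 (0.075) or 2 (0.065). C5ar1 (1.67 ± 0.14), C3ar1 (1.54 ± 0.17) and C1qb (1.05 ± 0.14) had means of 4.32, 5.93 and 99.3 FPKM, between those of chow and vehicle. Plau (1.43 ± 0.13) and Plat (0.69 ± 0.12) also stayed higher. Plaur (0.96 ± 0.34, adjusted p = 0.065) and Thbd (0.55 ± 0.26, adjusted p = 0.15) did not pass against chow, although their libraries did not overlap with chow, as was so for 22.4% of all genes tested in the higher direction. Both were called higher with total reads (adjusted p = 0.026 for Plaur and 0.028 for Thbd), with voom (0.034 and 0.040), with only the 6 libraries compared (0.012 and 0.0083) and without vehicle replicate 2 (0.020 and 0.014), and Plaur also without vehicle replicate 3 (0.019) and with a pseudocount of 0.1 (0.015). Whether vehicle and 326E differ in their distance from chow is the second comparison, given above.

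**Figure D4:**
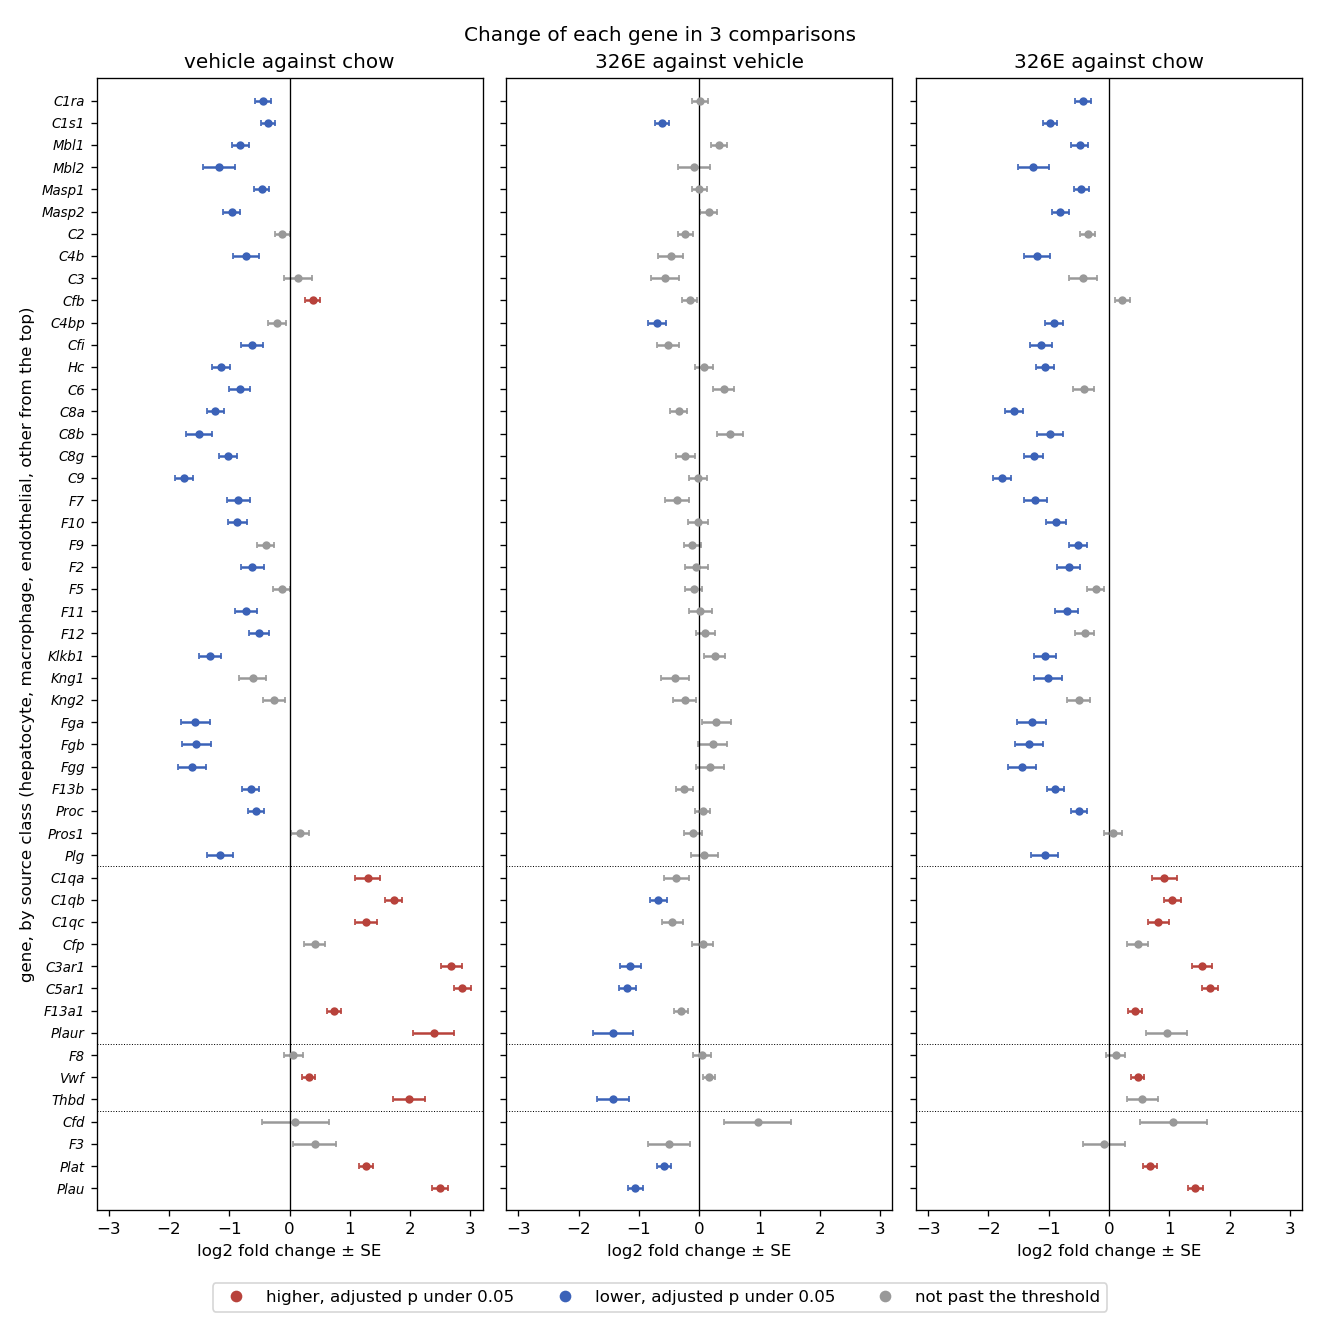
Points are the log2 change of each of the 50 members with its standard error, in 1 panel per comparison on a shared x axis, ordered by source class and coloured red (called higher), blue (called lower) or grey (not called). In the left and right panels most hepatocyte-made factors are blue and most macrophage-made factors red, and in the middle panel, 326E against vehicle, the 9 coloured points are all blue.

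Other genes of the same systems, from lists of 29 complement and 35 coagulation and fibrinolysis genes, were read in the same fit. Over all genes tested, 20.8% were called higher and 20.8% lower on the diet, and 4.96% and 6.50% under 326E. Of the 24 other complement genes tested, 7 were higher and 12 lower on the diet, and 2 were higher and 3 lower under 326E. Itgax and Itgb2, which form a leukocyte receptor for cleaved C3, rose by 3.61 and 3.55 on the diet and changed by -1.32 and -1.02 under 326E. C4a fell on the diet (-1.70) and was higher under 326E than with vehicle (0.73), as was Cpn1, the carboxypeptidase that inactivates C3a and C5a (0.63). Of the 28 other coagulation and fibrinolysis genes tested, 10 were higher and 11 lower on the diet, and 1 was higher and 4 lower under 326E. Anxa2, a plasminogen docking site on cells, rose by 3.09. Cpb2, which protects fibrin from plasmin, changed by -1.27 and Tfpi2, a protease inhibitor, by -1.32 on the diet, and Tfpi2 by 0.85 under 326E.

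Factors and signals known to drive genes of this kind were a list of 26, of which 24 were tested. On the diet 7 were higher and 5 lower, where 20.8% of all genes tested were called higher and 20.8% lower. Foxa2 and Cebpa, transcription factors of hepatocytes, changed by -1.52 ± 0.24 and -0.81 ± 0.17. Spi1, which encodes PU.1, rose by 2.02 ± 0.18, from 2.24, 3.61 and 1.99 FPKM in chow to 13.1, 12.8 and 14.4 in vehicle livers, with 9.47, 6.26 and 7.15 under 326E. Socs3, which is induced by IL-6 signalling, measured 2.22, 3.07 and 2.204 FPKM in chow, 16.8, 4.08 and 39.5 in vehicle and 4.93, 4.19 and 3.94 in 326E livers, so its rise was uneven in the vehicle group. Under 326E 1 of the 24 was higher (Foxa2, 0.87) and 4 were lower, where 4.96% of all genes tested were higher and 6.50% lower. Among the 4 were Il6ra (-1.25), the IL-6 receptor, and Il1r1 (-0.90), the IL-1 receptor.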

How the data were processed

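The authors deposited FPKM values for 54532 genes in 9 poly(A) RNA libraries. Per the submitters' processing notes, alignment used HISAT2 and counting used featureCounts, both on mm10; versions, annotation release, strand setting and the treatment of overlapping genes are not given in the sources used here. Multiplied by gene length (in bases, per the file headers of the deposited table), 100% of values gave whole reads within 0.01, and the library sizes inside the FPKM were median-of-ratios sizes, 0.828 to 1.19 times the assigned reads (chow libraries below 1, the others above). Replicates differed by more than counting error, and low values rest on few reads.

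A gene entered the test with 0.5 FPKM or more in 3 or more of 9 libraries (13737 genes). limma 3.58.1 (R 4.3.3) was fitted to log2(FPKM+1), which understates changes of low genes, over all 9 libraries together, with a variance trend and 6 residual degrees of freedom. Benjamini-Hochberg adjustment covered all genes tested in a comparison. The script was tested on simulated data with 198, 200 and 197 changed genes in the 3 comparisons. Of 2-fold changes, 32.5%, 32.7% and 38.3% were recovered, and of 4-fold changes 97.6%, 99.0% and 100%. False calls were 7.8%, 9.2% and 5.8% of calls at an adjusted p under 0.05. The simulated spread was fixed and not estimated from these libraries. A member that was not called may thus still have changed. Ratios of partner genes and tables used Python 3.11.15, pandas 2.3.3, numpy 2.4.6, scipy 1.17.1 and matplotlib 3.10.9. Exon overlaps came from GENCODE vM21, where 48 of 50 members have the deposited coordinates. The alternatives tried were a pseudocount of 0.1 or 5, no filter, a mean of at least 1 FPKM, quantile normalization, total-read scaling, voom on the whole reads, only the libraries compared, a replicate block, and leaving out each library, with 2 added after seeing the data: voom with the deposited library sizes, and only vehicle replicate 2 kept.

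The members, classes and lists were chosen with earlier results of these data known. Values in every library are given for the 2 members of each role with the largest change in vehicle against chow and in 326E against vehicle, and for C3, Cfb, the C1q and fibrinogen genes, F2, F3, Plau, Plaur and Vwf; of each other list, the 2 called genes with the largest change in each direction may be named. Values of 1 further gene that this rule covers are not reported here.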

Additional observations from a re-analysis of the deposited data

How the results depend on the processing

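In 326E against vehicle, 9 members were called, all lower, and 4 to 9 when each library was left out in turn, with 4 without 326E replicate 2. With vehicle replicate 2 alone in its group 5 were called, on the assumption that its spread equals that of the other groups. In vehicle against chow the 38 calls became 29 to 40 with single libraries left out, and in 326E against chow the 36 became 28 to 37. Counts fell to 26 and 24 in these 2 comparisons with quantile normalization, against 28 and 32 with total reads. In 326E against vehicle, quantile normalization gave 12 calls, all lower, with 5 hepatocyte-made factors in place of 2. The diet change of C1s1, -0.36 in the deposited scaling, turned to 0.022 with quantile normalization, 0.035 with total reads and 0.035 with voom on whole reads. The cause was not tested. The labels do not say whether the replicate numbers pair the samples. Same-numbered libraries had correlations of deviations from -0.244 to 0.0236, and differently numbered ones from -0.181 to 0.193. Such weak correlations cannot decide whether the numbers pair samples. With the replicate block 31, 8 and 33 members were called in the 3 comparisons. A mean of at least 1 FPKM left out F13a1 and Plat. Members with few reads, such as Cfd, F13a1, Plat and Vwf, are imprecise, and a change smaller than the scaling difference of chow against CDAA-HFD libraries could not be told apart from it.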
